A study of Mus musculus with 10 samples.

Results

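The genes of the proteasome were followed in retinal ganglion cells (RGCs), the neurons whose axons form the optic nerve, before and after optic nerve crush (ONC). Members were chosen by name and detection: a symbol that begins with Psm, then a letter from a to g and a digit, and at least 50 UMIs (unique molecular identifiers, each standing for 1 captured mRNA molecule) over the 10 libraries. Of 34254 genes in the files, 51 matched by symbol and 48 held enough UMIs. Psme2b with 43 UMIs, Psma8 with 18 and Psmb11 with 2 fell below the minimum, and the members with the fewest UMIs above it were Psmc3ip with 213 and Psmb9 with 230. Psmc3ip and Psme3ip1 carry the name of a proteasome gene they interact with and are not parts of the proteasome, which leaves 46 members that are. Psme2b, annotated with 1 exon on chromosome 11, resembles Psme2, annotated with 11 exons on chromosome 14, and how reads were shared between them was not tested.

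The proteasome degrades proteins that carry ubiquitin chains. Its barrel-shaped core is built from rings of alpha subunits, which gate the entrance, and rings of beta subunits, which line the chamber and include the catalytic ones, while a cap of ATPases and other subunits recognises, unfolds and feeds in the substrate. Cells exposed to interferon can replace the catalytic beta subunits with inducible ones to form the immunoproteasome, which makes peptides for antigen presentation, and in neurons the proteasome is known for its part in protein quality control and in the turnover of proteins at synapses and in axons.

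RGCs came from wild-type mice of strain 129S1/SvImJ, of both sexes and 12 weeks of age. The uninjured group had no crush, and the injured group was taken 2 weeks after ONC. The cells were enriched with antibodies to Thy1 after macrophages and amacrine cells had been removed, 10 retinas were pooled per batch, and 3' single-cell libraries were made with the 10x Chromium system from 6000 loaded cells per batch. There were 6 uninjured libraries with 98 to 651 cells and 2839693 to 23180399 UMIs in all, and 4 injured libraries with 273 to 527 cells and 4698799 to 8860536 UMIs. Medians over the cells of a library were 20437 to 34337 UMIs and 5712 to 7127 genes among uninjured libraries, and 11257 to 14695 UMIs and 4043 to 4604 genes among injured ones. Because retinas were pooled, the spread between libraries is not the spread between animals.

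Several libraries stood apart from the others. Injured 3, with 527 cells, and injured 4, with 471 cells, shared 421 cell barcodes, and their counts differed by 1.05 times sampling noise, so the 2 libraries were averaged and counted as 1 sample, called injured 3/4. The other pairs of libraries within a condition differed by 1.58 to 42.9 times sampling noise. Uninjured 5 and uninjured 6, alike between themselves at 1.58, differed from each of uninjured 1 to 4 by 14.0 to 42.9 times sampling noise, while pairs among uninjured 1 to 4 differed by 1.88 to 5.79 times. Xist, which is transcribed from the inactive X chromosome of females, had a UMI in 62.1% and 67.4% of cells of injured 1 and injured 2 and in at most 0.569% of cells of any other library, although the labels give both sexes. UMIs of mCherry, a gene of a fluorescent protein that the labels do not mention, were in 7.99%, 15.0%, 86.0% and 84.3% of cells of injured 1, 2, 3 and 4. They were in 0 of 1683 uninjured cells, which allows a share of up to 0.178%, for counting error only. The study gave an AAV2 vector with mCherry to control eyes of other experiments, and whether these injured eyes received it is not stated. If they did, effects of the vector and of the crush cannot be told apart in any result below, the interferon genes among them. The share of UMIs from the nuclear RNA Malat1 was 1.72 to 4.88% in uninjured and 6.09 to 8.01% in injured libraries, and that from mitochondrial genes was 2.84 to 5.69% and 1.93 to 3.87%. The part that these differences between libraries play in the results was not tested.

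The label of the cells was checked against 10 RGC marker genes, and every one was detected in every library. Their summed level was 6637 (lowest), 7153 (median) and 8952 (highest) CPM (UMIs of a gene in each 1000000 UMIs of its library, with library sizes scaled by the trimmed mean of M-values, TMM) in the uninjured samples, and 4780, 5375 and 5880 CPM in injured 1, injured 2 and injured 3/4. By mean CPM the most abundant gene of the list was Sncg, a synuclein, in the uninjured samples and Tubb3, a neuronal tubulin gene, in the injured ones. After injury 7 of the 10 were lower and 1, Tubb3, was higher, against 22.7% and 21.3% of all genes tested. Lower marker RNA per cell and a change in which RGCs were present cannot be told apart.

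Of the 48 members, all of which passed the filter on low counts, 7 were higher and 3 were lower after injury at an adjusted p under 0.05, and 38 were not past this threshold (edgeR's quasi-likelihood test, Benjamini-Hochberg adjustment over 14234 genes, 6 uninjured and 3 injured samples). Over all genes tested 44.0% were past it, 21.3% higher and 22.7% lower, against 20.8% of the members. Uninjured and injured samples did not overlap for 9 members and for 42.9% of all genes. The median log2 fold change was 0.08 over the members and -0.03 over all genes tested. The median over the members turned with the setting, to -0.20 without cells that held an mCherry UMI, -0.15 against uninjured 5 and 6, 0.16 against uninjured 1 to 4 and 0.29 at 3 to 5% Malat1, where that over all genes was -0.02, 0.04, -0.01 and 0.00. The 7 higher genes were Psma7 of the alpha ring, Psmb8 and Psmb9 of the immunoproteasome, Psmc6 and Psmd11 of the cap, the alternative cap Psme4 and the assembly chaperone Psmg4. The 3 lower genes were Psmc5 of the cap, the alternative cap subunit Psme1 and the chaperone Psmd5. Psmc3ip, at a log2 fold change of 0.67, and Psme3ip1, at 0.15, were not past the threshold.

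**Figure D1:**
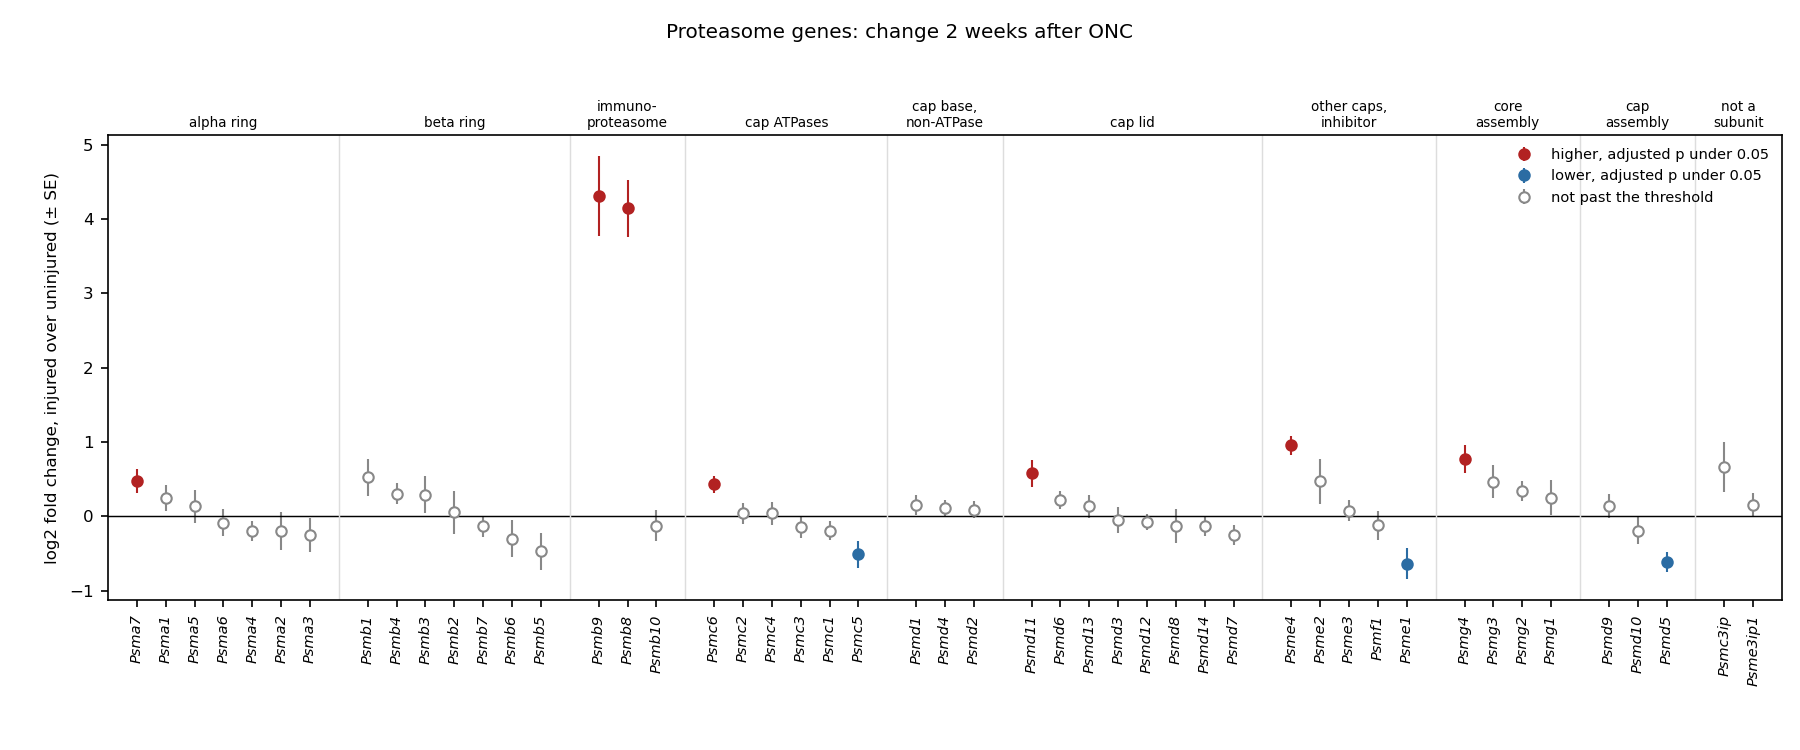
Log2 fold change, injured over uninjured, of each of the 48 members with its standard error, grouped by role (n = 6 uninjured and 3 injured samples). Psmb8 and Psmb9, at 4.15 and 4.31, lie far above the other members, which range from -0.64 to 0.96.

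Uninjured 5 and 6 had higher levels of most proteasome genes than uninjured 1 to 4. Both lay above each of uninjured 1 to 4 for 36 of the 48 members, or 75.0%, against 29.9% of all genes tested, and both lay below for 3 members against 28.7% of all genes. This held for 13 of the 14 genes of the alpha and beta rings, for 10 of 17 cap genes and for 7 of 7 assembly chaperones. Injury was therefore also compared with each set of uninjured libraries alone, settings chosen after the data were seen, which share the 3 injured samples. Against uninjured 1 to 4, 20 members were higher and 4 lower, beside 26.8% and 27.3% of all genes. Against uninjured 5 and 6, 6 members were higher and 14 lower, beside 31.1% and 30.1% of all genes. Psmb2, a beta ring subunit, was past the threshold in each with opposite signs, at a log2 fold change of 0.46 against uninjured 1 to 4 and -0.50 against uninjured 5 and 6. The plot of each member against each set shows these values side by side.

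**Figure D2:**
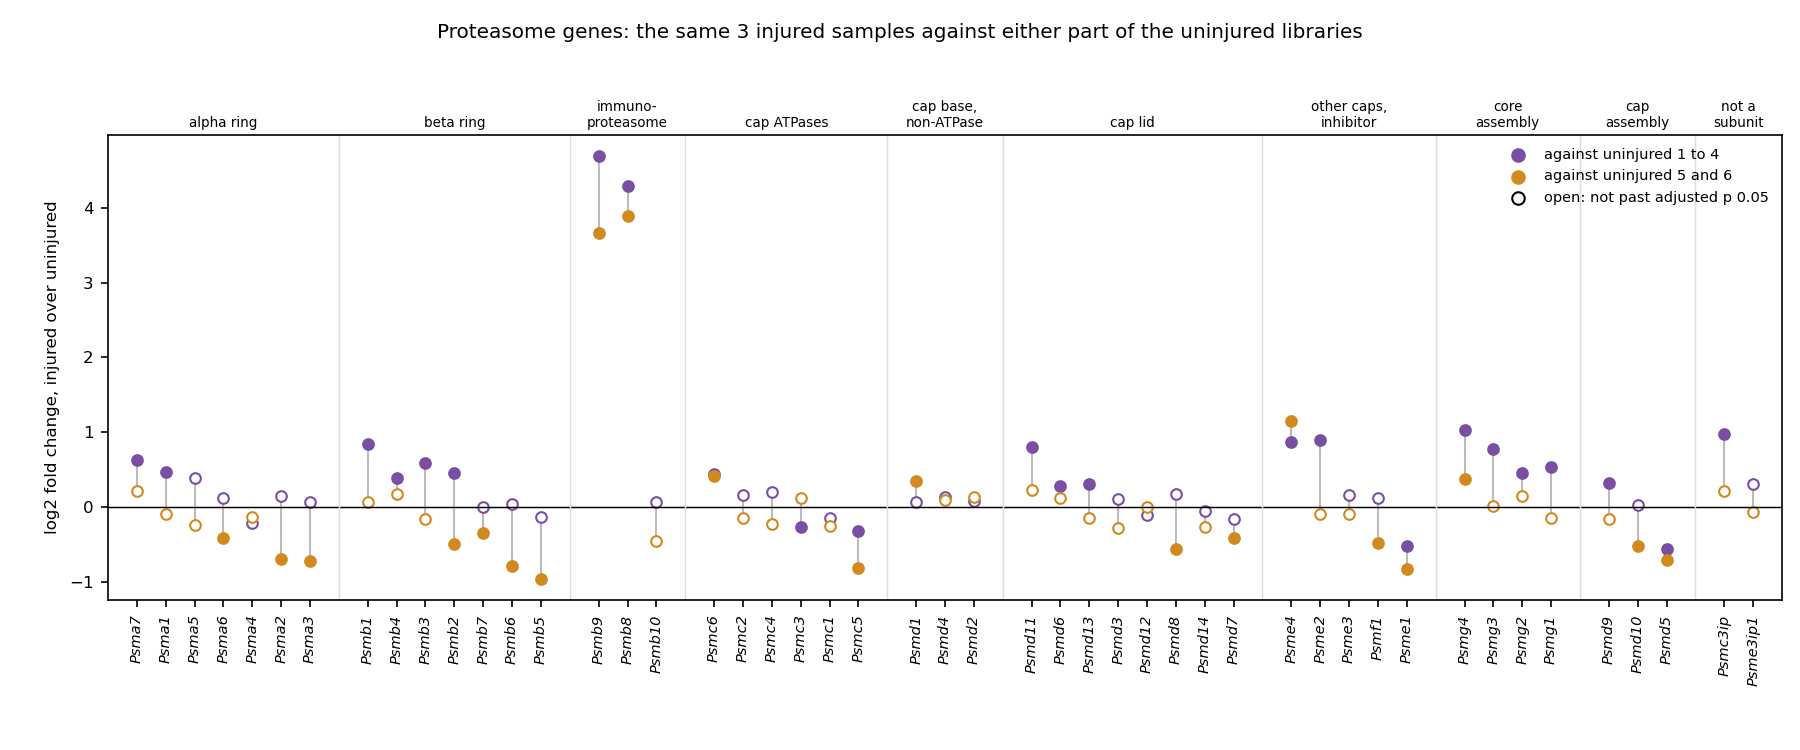
Log2 fold change of each member in the 3 injured samples against uninjured 1 to 4 and against uninjured 5 and 6. Open points are not past the adjusted threshold, and the comparisons share the injured samples. Psmb8 (4.29 and 3.88), Psmb9 (4.69 and 3.66) and Psme4 (0.87 and 1.15) are far from 0 in both, while Psmb5 lies at -0.14 and -0.96.

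In the alpha ring, whose subunits gate the core, 1 of 7 genes was higher after injury and none was lower. Psma7 was at 246 (lowest), 286 (median) and 372 (highest) CPM in the uninjured samples and at 380, 455 and 404 CPM in injured 1, injured 2 and injured 3/4. All 3 injured samples lay above the uninjured ones, with injured 1 close to uninjured 6, the highest of these. Its log2 fold change was 0.47 with a standard error (SE) of 0.162, at an adjusted p of 0.0337 (edgeR). It was 0.62 against uninjured 1 to 4 and 0.21 against uninjured 5 and 6, where it was not past the threshold. The adjusted p of Psma7 was 0.0514 without uninjured 2, 0.0512 without uninjured 3, 0.0584 without injured 1 and 0.139 without injured 2. It was 0.0531 without a filter on low counts, 0.220 with similar libraries summed, 0.0621 with injured 1 and 2 alone, 0.291 with injured 3/4 alone and 0.727 without cells that held an mCherry UMI, and the lowest over all settings was 0.000161. The other 6 alpha genes had log2 fold changes from -0.25 for Psma3 to 0.25 for Psma1. The summed level of the ring was 1133, 1284 and 1859 CPM in the uninjured samples (lowest, median and highest) and 1328, 1569.7 and 1515 CPM in the injured ones.

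In the beta ring, which holds the catalytic sites, 0 of 7 genes were past the threshold in edgeR's test. At an unadjusted p under 0.05 there was 1, Psmb4, and 1 gene was past the adjusted threshold in DESeq2. Psmb5, which carries the chymotrypsin-like activity, was at 241, 269 and 472 CPM (lowest, median and highest uninjured sample) and at 209.8, 281 and 223 CPM in injured 1, injured 2 and injured 3/4. Psmb6, with the caspase-like activity, was at 176, 204 and 351 CPM in the uninjured samples and at 182, 228 and 183 CPM in the injured ones. Psmb7, with the trypsin-like activity, was at 138, 142 and 187 CPM in the uninjured samples and at 132, 154 and 135 CPM in the injured ones. For these 3 genes the injured samples lay among or below uninjured 1 to 4, or above them in the case of injured 2, and uninjured 5 and 6 lay higher than any injured sample. Log2 fold changes were -0.47 for Psmb5, -0.30 for Psmb6 and -0.13 for Psmb7, at adjusted p of 0.153, 0.350 and 0.484 (edgeR). Against uninjured 5 and 6 alone they were -0.96, -0.80 and -0.35, each past the threshold, and against uninjured 1 to 4 alone they were -0.14, 0.03 and -0.01, none of them past it. The remaining beta genes ranged up to 0.53 for Psmb1. The ring summed to 1207, 1392 and 2189 CPM in the uninjured samples and to 1407, 1752 and 1829.7 CPM in the injured ones.

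The inducible subunits Psmb8 and Psmb9, which take the places of Psmb5 and Psmb6 in the immunoproteasome, had the largest rises among the members, while Psmb10, which takes the place of Psmb7, was not past the threshold. Psmb8 was at 0.740, 1.39 and 2.24 CPM (lowest, median and highest uninjured sample) and at 17.0, 39.5 and 13.4 CPM in injured 1, injured 2 and injured 3/4. Psmb9 was at 0.123, 0.464 and 1.40 CPM in the uninjured samples and at 5.95, 15.5 and 7.12 CPM in the injured ones. For both genes every injured sample lay above every uninjured one, and injured 2 was the highest. The log2 fold change of Psmb8 was 4.15 with an SE of 0.384, or 17.7-fold, at an adjusted p of 5.66e-06 (edgeR). That of Psmb9 was 4.31 with an SE of 0.537, or 19.8-fold, at an adjusted p of 5.51e-05 (edgeR), on 21 UMIs over the 6 uninjured libraries and 209 over the 4 injured ones, so Psmb9 met the minimum of 50 UMIs only through the group in which it was higher. Psmb8 and Psmb9 had at most 19 and 5 UMIs in an uninjured library. Both met the filter on low counts only through the injured group, and their fold changes rest on these few UMIs. Without injured 2 the log2 fold change was 3.53 for Psmb8 and 3.76 for Psmb9. With injured 1 and 2 alone these were 4.45 and 4.49, with injured 3/4 alone 3.34 and 3.84, and without cells that held an mCherry UMI, which kept 74 of 527 cells of injured 3 and 74 of 471 of injured 4, 4.27 and 4.36, each past the threshold. Psmb10 was at 38.7, 44.1 and 61.2 CPM in the uninjured samples and at 39.4, 57.9 and 33.0 CPM in the injured ones. Its injured samples lay on both sides of the uninjured median, with injured 3/4 below every uninjured sample and a log2 fold change of -0.13 at an adjusted p of 0.652 (edgeR). For each 100 UMIs of Psmb5 there were 0.288, 0.365 and 0.850 UMIs of Psmb8 in the uninjured samples (lowest, median and highest) and 8.10, 14.1 and 6.02 in the injured ones. For each 100 UMIs of Psmb6 there were 0.0699, 0.185 and 0.675 of Psmb9 in the uninjured samples and 3.26, 6.80 and 3.89 in the injured ones. The same ratio for Psmb10 to Psmb7 was 27.4, 30.4 and 35.3 in the uninjured samples and 29.8, 37.6 and 24.5 in the injured ones, so the injured samples overlapped the uninjured ones for Psmb10 and not for Psmb8 or Psmb9.

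**Figure D3:**
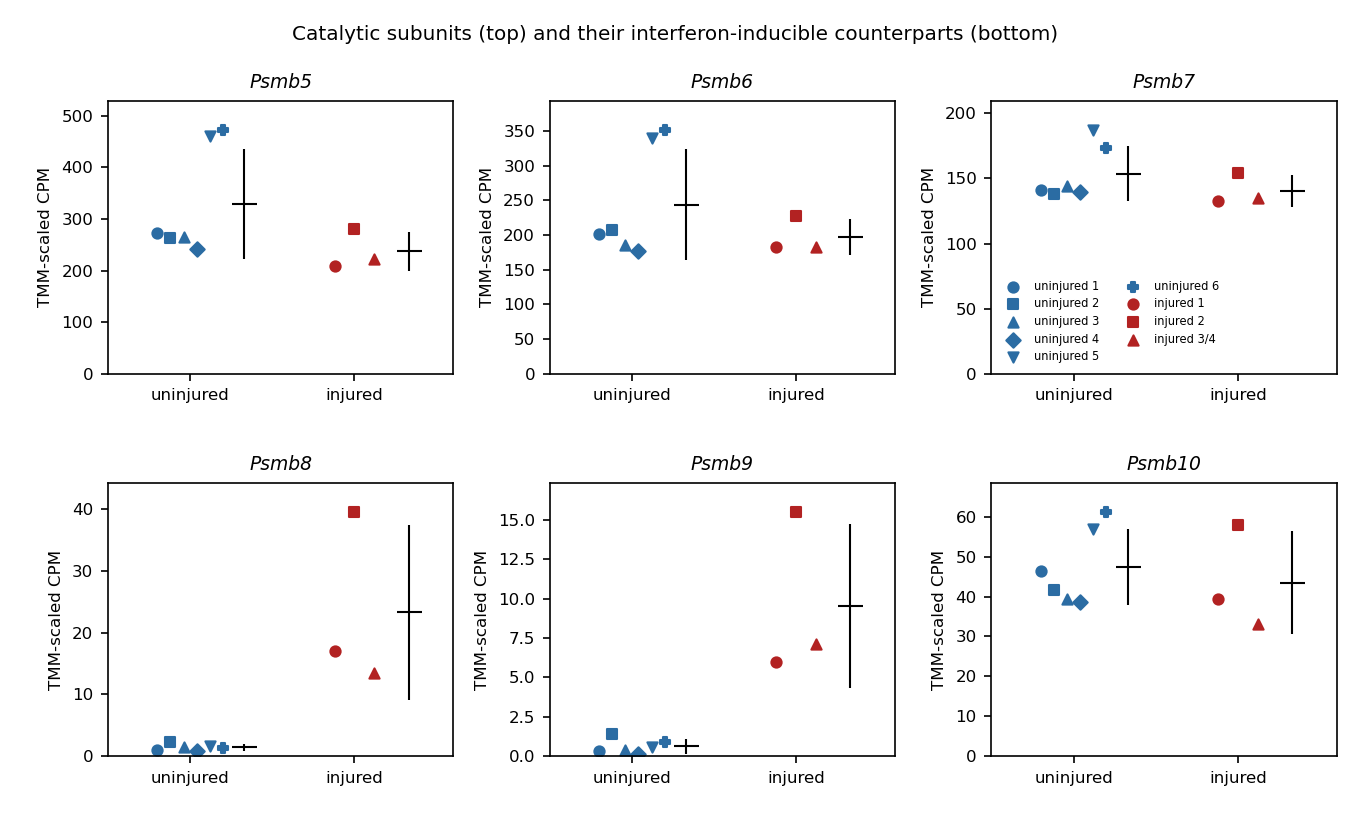
CPM of the catalytic subunits Psmb5, Psmb6 and Psmb7 (top) and of their inducible counterparts Psmb8, Psmb9 and Psmb10 (bottom). Each point is a sample, and the bars give the mean with its standard deviation (n = 6 uninjured and 3 injured). The injured samples of Psmb8 lie at 13.4 CPM or above and the uninjured ones at 2.24 CPM or below.

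Psmb8 and Psmb9 lie side by side on chromosome 17, in the major histocompatibility complex, and Psmb10 lies on chromosome 8. In GRCm39, Psmb9 spans chr17:34400960-34406738 on the minus strand and Psmb8 spans chr17:34416690-34420428 on the plus strand, with the peptide transporter gene Tap1 between them at chr17:34405996-34416199 on the plus strand, overlapping the start of Psmb9. Tap1 itself was at 12.6, 13.5 and 6.18 CPM in the injured samples and at most at 1.29 CPM in an uninjured one, a log2 fold change of 3.77 at an adjusted p of 1.97e-05 (edgeR). Tap1 had at most 14 UMIs in an uninjured library and met the filter on low counts only through the injured group. Promoter windows, from 250 bases before to 50 bases from the gene start, were taken from RefSeq (build GRCm38.p6), which held 42 windows for 39 of the 46 proteasome genes. The starts of Psmb9 and Tap1 are 226 bases apart there, so their windows share 275 bases. The windows of the inducible subunits are printed because these genes share a role and differed in their values, and that of Psme4 because it rose beside them. They were searched on both strands for TGACNNNGC, the core of the antioxidant response element, CCAAT, TTCNNNGAA, the gamma-activated site, and GAAANNGAA, a core of the interferon-stimulated response element chosen after the data were seen, and matches are in capitals. Psmb8 (chr17:34197945-34198244, plus strand) holds TTCCCAGAA, a match to TTCNNNGAA, at 97 to 89 bases before its start. Psmb9 (chr17:34187281-34187580, minus strand) holds ATTGG, which is CCAAT on the other strand, at 8 to 4 bases before its start. Psme4 (chr11:30771525-30771824, plus strand) holds GCAGCGTCA, which is TGACNNNGC on the other strand, and the Psmb10 window (chr8:105938343-105938642, minus strand) holds no match.
Psmb8: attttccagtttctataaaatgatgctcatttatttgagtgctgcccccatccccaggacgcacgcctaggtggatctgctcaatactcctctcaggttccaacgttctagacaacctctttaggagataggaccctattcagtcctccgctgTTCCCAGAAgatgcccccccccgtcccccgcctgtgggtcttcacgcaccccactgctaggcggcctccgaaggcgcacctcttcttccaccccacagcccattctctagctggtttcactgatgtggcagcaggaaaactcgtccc
Psmb9: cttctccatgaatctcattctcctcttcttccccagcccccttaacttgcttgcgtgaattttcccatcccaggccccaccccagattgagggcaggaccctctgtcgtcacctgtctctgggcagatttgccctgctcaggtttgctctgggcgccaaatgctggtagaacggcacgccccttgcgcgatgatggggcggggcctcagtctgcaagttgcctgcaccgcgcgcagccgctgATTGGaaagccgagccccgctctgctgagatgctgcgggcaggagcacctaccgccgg
Psmb10: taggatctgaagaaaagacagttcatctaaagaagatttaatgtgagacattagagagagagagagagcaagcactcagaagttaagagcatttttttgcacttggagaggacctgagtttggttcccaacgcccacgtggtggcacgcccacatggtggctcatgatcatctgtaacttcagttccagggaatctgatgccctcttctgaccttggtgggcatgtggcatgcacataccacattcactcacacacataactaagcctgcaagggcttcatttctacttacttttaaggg
Psme4: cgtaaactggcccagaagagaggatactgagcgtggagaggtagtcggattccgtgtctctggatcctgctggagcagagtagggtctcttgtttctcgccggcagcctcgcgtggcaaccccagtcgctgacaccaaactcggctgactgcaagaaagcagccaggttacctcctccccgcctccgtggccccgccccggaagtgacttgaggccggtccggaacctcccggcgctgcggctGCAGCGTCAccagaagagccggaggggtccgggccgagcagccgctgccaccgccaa

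Across all 32851 RefSeq promoter windows, TGACNNNGC was in 12.4%, CCAAT in 37.4%, TTCNNNGAA in 8.30% and GAAANNGAA in 8.56%. Among the 42 windows of proteasome genes, TGACNNNGC was in 6 (14.3%), CCAAT in 13 (31.0%), TTCNNNGAA in 3 (7.14%) and GAAANNGAA in 7 (16.7%). The genes with TGACNNNGC were Psmb5, Psmb6, Psmc6, Psmd9, Psmd12 and Psme4, and those with TTCNNNGAA were Psmb8, Psmd2 and Psmg1. Those with GAAANNGAA were Psmb3, Psmb4, Psmc2, Psmd4, Psmd9, Psme1 and Psmg4. GAAANNGAA was in 9 of 19 windows (47.4%) of a list of interferon and antigen presentation genes. In the same windows TGACNNNGC was in 3 (15.8%), CCAAT in 10 (52.6%) and TTCNNNGAA in 3 (15.8%). These matches describe the letters of the windows, and binding was not measured.

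Few cells held the UMIs of the inducible subunits. Psmb8 had a UMI in 37 of 338 cells of injured 1, 29 of 273 of injured 2, 41 of 527 of injured 3 and 34 of 471 of injured 4, or 7.22 to 10.9% of cells, and in 1.23 to 3.88% of cells of the uninjured libraries. The injured cells were the shallower ones, so cells with at least 8000 UMIs were thinned to that number and the others were left out. A Psmb8 UMI was then in 20 of 306 cells of injured 1, 23 of 251 of injured 2, 19 of 460 of injured 3 and 16 of 359 of injured 4, with cells shared between the last 2, and in 6 of 1654 uninjured cells. In injured 2 the 176 UMIs of Psmb8 were uneven over cells, with 46 of them in 1 cell. Psmb9 had a UMI in 5.12 to 6.59% of cells of the injured libraries and in 0.461 to 2.91% of cells of the uninjured ones. By contrast Psmb5 had a UMI in 76.3 to 93.0% of injured and 90.8 to 100% of uninjured cells. The files hold RGCs alone, so the share of cells that free RNA alone would give could not be measured in another cell type.

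Markers of microglia and macrophages, immune cells in which immunoproteasome genes are commonly active, were followed as well. Of the 16 genes listed, 3 were tested, of which Cx3cr1 and Cd68 were higher and P2ry12 was not past the threshold. Over all genes tested 21.3% were higher. P2ry12 had a log2 fold change of -1.08 at an adjusted p of 0.0780 (edgeR). Cd68 had at most 4 UMIs in an uninjured library, so it met the filter on low counts only through the injured group. The list summed to 6.62, 9.86 and 24.4 CPM in the uninjured samples (lowest, median and highest) and to 22.8, 27.6 and 16.1 CPM in injured 1, injured 2 and injured 3/4, with P2ry12 the most abundant gene by mean in the uninjured samples and Cx3cr1 in the injured ones. Injured 2 lay above every uninjured sample, and injured 1 and injured 3/4 lay above all but uninjured 4. Of the defining genes of these cells, C1qa, C1qc, Itgam, Tmem119, Trem2 and Tyrobp had 0 UMIs in all 4 injured libraries, but also in uninjured 1, 2, 3 and 5. Others had some, such as Aif1 with 9, 5, 8 and 6 UMIs and Csf1r with 2, 2, 7 and 5 in injured 1, 2, 3 and 4. Cells with a UMI of the list made up 20.4, 19.8, 19.2 and 14.6% of cells of injured 1, 2, 3 and 4 and held 25.8, 50.6, 19.7 and 11.0% of the Psmb8 UMIs. In uninjured 1 to 6, whose cells were deeper, they made up 30.6, 21.4, 36.1, 39.9, 11.2 and 16.9% of cells and held 66.7, 75.0, 42.1, 44.4, 0 and 16.7% of the few Psmb8 UMIs. Without those cells, a setting chosen after the data were seen, the log2 fold change was 4.06 for Psmb8 and 4.90 for Psmb9, both past the threshold. In that setting 7 members were higher and 3 lower, or 20.8%, against 43.3% of all genes past the threshold.

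In the cap that joins the core, 2 of 17 genes were higher, 1 was lower and 14 were not past the threshold. Among its 6 ATPases, which unfold the substrate, Psmc6 was higher and Psmc5 was lower after injury. Psmc6 was at 155, 172 and 175 CPM (lowest, median and highest uninjured sample) and at 211, 232 and 243 CPM in injured 1, injured 2 and injured 3/4. The injured samples all lay above the uninjured ones, 5 of which were within 172 to 175 CPM. The log2 fold change of Psmc6 was 0.43 with an SE of 0.114, at an adjusted p of 0.00932 (edgeR), and it was 0.44 against uninjured 1 to 4 and 0.41 against uninjured 5 and 6, past the threshold in each. Psmc6 was not past the threshold in 6 of 30 settings. Its adjusted p was 0.0533 with cells thinned to 8000 UMIs, 0.0742 at 3 to 5% Malat1, 0.143 with similar libraries summed, 0.0809 with injured 3/4 alone, 0.0920 without cells with markers of another class and 0.626, at a log2 fold change of 0.16, without cells that held an mCherry UMI, and the lowest over all settings was 4.29e-06. Psmc5 was at 211, 228 and 318 CPM in the uninjured samples and at 172, 212 and 149.99 CPM in the injured ones. Injured 1 and injured 3/4 lay below every uninjured sample, and injured 2 overlapped the lowest of them. Its log2 fold change was -0.51 with an SE of 0.187, at an adjusted p of 0.0433 (edgeR), and it was -0.33 against uninjured 1 to 4 and -0.83 against uninjured 5 and 6. The adjusted p of Psmc5 was 0.0591 without uninjured 2, 0.0657 without uninjured 5, 0.0587 without uninjured 6 and 0.136 without injured 1. It was 0.0586 without a filter on low counts, 0.310 at 3 to 5% Malat1, 0.136 with similar libraries summed, 0.193 with injured 1 and 2 alone, 0.131 with injured 3/4 alone and 0.160 without cells that held an mCherry UMI, and the lowest over all settings was 0.000295. The other 4 ATPase genes had log2 fold changes from -0.19 to 0.04.

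Of the 3 base genes that are not ATPases, which include the ubiquitin receptor Psmd4, 0 were past the threshold in edgeR's test, 0 at an unadjusted p under 0.05 and 0 in DESeq2, with log2 fold changes from 0.09 to 0.15. In the lid, which removes ubiquitin from the substrate, 1 of 8 genes was higher. Psmd11, a scaffold subunit of the lid, was at 100.1, 109 and 157 CPM (lowest, median and highest uninjured sample) and at 162, 172 and 211 CPM in injured 1, injured 2 and injured 3/4. All injured samples lay above the uninjured ones, although uninjured 5 and 6, both at 157 CPM, lay nearer to injured 1 than to the other uninjured samples. That is a log2 fold change of 0.58 with an SE of 0.186, at an adjusted p of 0.0248 (edgeR). It was 0.80 against uninjured 1 to 4 and 0.22 against uninjured 5 and 6, where it was not past the threshold, at an adjusted p of 0.163. The adjusted p of Psmd11 was 0.0546 without injured 2, 0.111 with similar libraries summed, 0.106 with injured 1 and 2 alone, 0.0894 with injured 3/4 alone and 0.122 without cells that held an mCherry UMI, and the lowest over all settings was 2.52e-05. The other 7 lid genes, among them the deubiquitinase Psmd14, had log2 fold changes from -0.25 to 0.22.

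Among the alternative caps, Psme4, a large activator that opens the core without ATP and is known for its part in histone degradation and DNA repair, had the largest rise among the members outside the immunoproteasome. Psme4 was at 86.8, 103 and 116 CPM (lowest, median and highest uninjured sample) and at 202, 189.98 and 205 CPM in injured 1, injured 2 and injured 3/4. The 3 injured samples lay close together, far above all uninjured samples, and here uninjured 5 and 6 were the lowest of the uninjured samples. Its log2 fold change was 0.96 with an SE of 0.126, or 1.94-fold, at an adjusted p of 7.90e-05 (edgeR). Among the cells with at least 8000 UMIs, thinned to that number, a Psme4 UMI was in 70.6 to 71.7% of cells of the injured libraries and in 41.5 to 59.9% of cells of the uninjured ones. In GRCm39, Psme4 spans chr11:30721725-30830376 on the plus strand.

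Of Psme1 and Psme2, whose products together form the interferon-inducible ring cap, Psme1 was lower and Psme2 was not past the threshold. The difference between these genes was not tested. Psme1 was at 52.6, 73.3 and 81.1 CPM (lowest, median and highest uninjured sample) and at 47.1, 54.6 and 30.3 CPM in injured 1, injured 2 and injured 3/4. Injured 1 and injured 3/4 lay below every uninjured sample and injured 2 lay just above the lowest. Its log2 fold change was -0.64 with an SE of 0.204, at an adjusted p of 0.0247 (edgeR), and it was -0.53 against uninjured 1 to 4 and -0.83 against uninjured 5 and 6. Psme1 was not past the threshold in 6 of 30 settings. Its adjusted p was 0.0581 without injured 1, 0.451 at 3 to 5% Malat1, 0.0734 with similar libraries summed, 0.134 with injured 1 and 2 alone, 0.109 without cells with markers of another class and 0.189 without cells that held an mCherry UMI, and the lowest over all settings was 0.000790. Psme2 was at 21.1, 33.8 and 53.5 CPM in the uninjured samples and at 44.3, 64.0 and 39.5 CPM in the injured ones. All injured samples of Psme2 lay above uninjured 1 to 4, and injured 2 alone lay above uninjured 5 and 6. Its log2 fold change was 0.47 at an adjusted p of 0.234 (edgeR), and it was 0.89 against uninjured 1 to 4, past the threshold, and -0.09 against uninjured 5 and 6. Psme3, which forms a ring cap in the nucleus, was at 23.6, 27.8 and 33.3 CPM in the uninjured samples and at 28.0, 27.8 and 32.6 CPM in the injured ones. Psmf1, an inhibitor of the core, was at 22.0, 27.9 and 37.9 CPM in the uninjured samples and at 24.3, 27.8 and 27.8 CPM in the injured ones. The injured samples of Psme3 and Psmf1 lay within the uninjured range, with log2 fold changes of 0.08 and -0.12 at adjusted p of 0.687 and 0.653 (edgeR).

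Of the 7 chaperones that build the proteasome, 1 was higher, 1 was lower and 5 were not past the threshold. Of the 4 core assembly chaperones, which help the rings form, Psmg4 was higher and the other 3 had positive log2 fold changes from 0.25 to 0.47. Psmg4 was at 31.2, 35.1 and 53.0 CPM (lowest, median and highest uninjured sample) and at 62.7, 64.9 and 74.4 CPM in injured 1, injured 2 and injured 3/4. Every injured sample lay above every uninjured one, and uninjured 5 and 6 were the highest uninjured samples. For Psmg4 the log2 fold change was 0.77 with an SE of 0.190, at an adjusted p of 0.00633 (edgeR), and it was 1.03 against uninjured 1 to 4 and 0.37 against uninjured 5 and 6, past the threshold in each. The adjusted p of Psmg4 was 0.0510 with similar libraries summed, 0.0673 with injured 3/4 alone and 0.354, at a log2 fold change of 0.41, without cells that held an mCherry UMI, and the lowest over all settings was 1.36e-06. Of the 3 cap assembly chaperones, Psmd5 was lower, and Psmd9 and Psmd10 had log2 fold changes of 0.14 and -0.19. Psmd5, which holds ATPase subunits of the base during assembly, was at 52.3, 59.2 and 63.2 CPM in the uninjured samples and at 30.8, 41.8 and 41.9 CPM in the injured ones. Every injured sample lay below every uninjured one. Psmd5 had a log2 fold change of -0.62 with an SE of 0.136, at an adjusted p of 0.00311 (edgeR), and it was -0.57 against uninjured 1 to 4 and -0.71 against uninjured 5 and 6, past the threshold in each. The adjusted p of Psmd5 was 0.0810 at 3 to 5% Malat1, 0.0555 with similar libraries summed and 0.131 with injured 3/4 alone, with a range of 0.000134 to 0.131 over all settings.

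Summed over its genes, the core overlapped between conditions. Its 14 genes came to 2339.9, 2676 and 4048 CPM (lowest, median and highest uninjured sample) and to 2735, 3321 and 3344 CPM in injured 1, injured 2 and injured 3/4. The cap, with 17 genes, came to 2269, 2452 and 2774 CPM in the uninjured samples and to 2382, 2644 and 2576 CPM in the injured ones. The 7 assembly chaperones came to 205, 227 and 304 CPM in the uninjured samples and to 244, 279.6 and 294 CPM in the injured ones. In these 3 sums all injured samples lay between uninjured 1 to 4 and uninjured 5 and 6 or among uninjured 1 to 4. The immunoproteasome genes came to 39.6, 46.6 and 63.4 CPM in the uninjured samples and to 62.3, 113 and 53.6 CPM in the injured ones, with Psmb10 the most abundant of them. The alternative caps and inhibitor came to 236, 262 and 290.01 CPM in the uninjured samples and to 346, 365 and 338 CPM in the injured ones, with no overlap and with Psme4 the most abundant gene. No p was computed for a sum, since the members were chosen by name with results known.

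**Figure D4:**
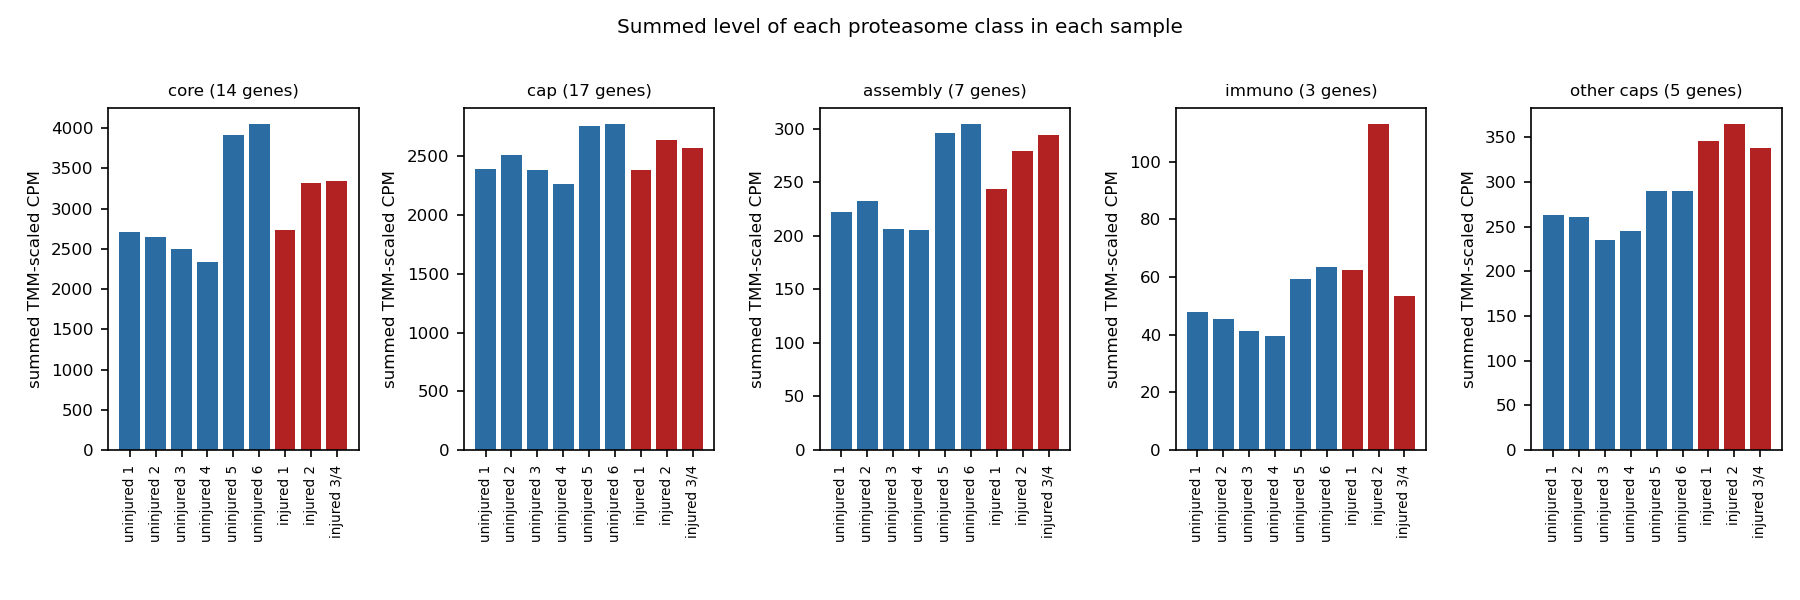
Summed CPM of the members of each class, with 1 bar for each of the 6 uninjured and 3 injured samples and axes that start at 0. The core lies at 3916 and 4048 CPM in uninjured 5 and 6 and at 2339.9 to 2704 CPM in uninjured 1 to 4, with the injured samples between these sets.

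Other genes of the pathway were taken from a list of 35 that the naming rule does not reach, of which 34 were in the files and tested. After injury 11 were higher, or 32.4% against 21.3% of all genes, with a median log2 fold change of 0.08. Among the 6 ubiquitin and ubiquitin-activating enzyme genes, Rps27a, which encodes ubiquitin fused to a ribosomal protein, was higher at 0.59 with overlapping samples (adjusted p of 0.0304, edgeR), and the polyubiquitin gene Ubb was at -0.01, not past the threshold.

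Of 7 genes that control proteasome levels, 4 were higher after injury, against 21.3% of all genes: Ddi2 and Ngly1, whose products process the transcription factor Nfe2l1 into its active form, and Mafg and Mafk, small DNA-binding partners of that factor. Ddi2 was at 15.2, 28.6 and 38.1 CPM (lowest, median and highest uninjured sample) and at 52.4, 51.4 and 66.1 CPM in the injured samples, all above the uninjured ones, with a log2 fold change of 1.02 at an adjusted p of 0.00317 (edgeR). Ngly1 was at 0.58 and Mafg at 0.60 on the log2 scale, with adjusted p of 0.00613 and 0.00692 (edgeR). Mafk was at 1.65, 1.77 and 2.18 CPM in the uninjured samples and at 10.7, 7.41 and 9.67 CPM in the injured ones, a log2 fold change of 2.29. Nfe2l1, which drives proteasome genes when degradation falls short, was at 167, 178 and 198 CPM in the uninjured samples and at 135, 106 and 173 CPM in the injured ones. Injured 3/4 lay within the uninjured range of Nfe2l1 and the others below it, with a log2 fold change of -0.40 at an adjusted p of 0.0606 (edgeR). In the same list Nfe2l2 was at -0.51, with every injured sample below every uninjured one, and Keap1 at 0.08. Their adjusted p were 0.0548 and 0.641 (edgeR). Nfe2l1 and Nfe2l2 were both past the threshold with upper-quartile factors and with scaling by library totals.

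Akirin2, which carries proteasomes into the nucleus, was higher among 6 cap and assembly parts outside the naming rule, at 58.6, 79.5 and 89.0 CPM in the uninjured samples and 109.96, 124 and 157 CPM in the injured ones. Its injured samples lay above all uninjured ones, with a log2 fold change of 0.80 at an adjusted p of 0.00209 (edgeR), while the core maturation factor Pomp was at 0.07. Of 11 shuttle factors and segregase genes, which bring substrates to the proteasome, 5 were higher and 0 lower, against 21.3% and 22.7% of all genes. Sqstm1, an autophagy receptor that also binds the proteasome, was at 155, 205 and 251 CPM in the uninjured samples and at 368, 390.1 and 386 CPM in the injured ones. The injured samples were close together and above every uninjured one, with a log2 fold change of 0.88 at an adjusted p of 0.00109 (edgeR). Zfand2a and Zfand5, whose products bind the proteasome under stress or in wasting muscle, had log2 fold changes of 0.59 and 0.53 at adjusted p of 0.00462 and 0.00723 (edgeR). Of 4 deubiquitinases and ligases that bind the proteasome, 0 were past the threshold in edgeR's test, 2 at an unadjusted p under 0.05 and 2 in DESeq2.

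A list of 20 interferon and antigen presentation genes, which includes targets of the same signals as Psmb8 and Psmb9, was higher throughout. All 20 were past the threshold and higher, against 21.3% of all genes, and samples did not overlap for 18, against 42.9%. The list was chosen with earlier results of these data known, so these shares are descriptive. The median log2 fold change was 3.57. The list summed to 159, 175 and 233 CPM in the uninjured samples (lowest, median and highest) and to 1093, 1380.2 and 1036 CPM in injured 1, injured 2 and injured 3/4. Ifit1, an interferon-induced RNA-binding protein, was at 123, 218 and 28.3 CPM in the injured samples and at most at 1.10 CPM in an uninjured one, with a log2 fold change of 8.18 at an adjusted p of 2.72e-06 (edgeR). Injured 2 was the highest and injured 3/4 the lowest for Ifit1, as for Psmb8. For Psmb9 injured 2 was also the highest, but injured 1 was the lowest, at 5.95 CPM beside 7.12 CPM in injured 3/4. Isg15, a ubiquitin-like modifier, was at 24.5, 56.1 and 8.86 CPM and Bst2, a membrane protein that tethers virus particles, at 24.2, 53.2 and 18.1 CPM in the injured samples. Both were at or below 0.451 CPM in every uninjured sample, with log2 fold changes of 7.11 and 6.74 at adjusted p of 4.24e-06 and 3.61e-07 (edgeR). Ifit1, Isg15 and Bst2 had at most 8, 6 and 6 UMIs in an uninjured library. They met the filter on low counts only through the injured group, and their fold changes rest on these few UMIs. A list of 10 axon injury response genes, also chosen with earlier results known, was higher in all 10, against 21.3% of all genes. The median log2 fold change was 5.18, with the transcription factor gene Atf3 at 9.37 and the protease gene Ecel1 at 11.28. Atf3 and Ecel1 were at most at 2.51 and 1.10 CPM in an uninjured sample. They met the filter on low counts only through the injured group, so their fold changes rest on uninjured levels near 0.

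**Figure D5:**
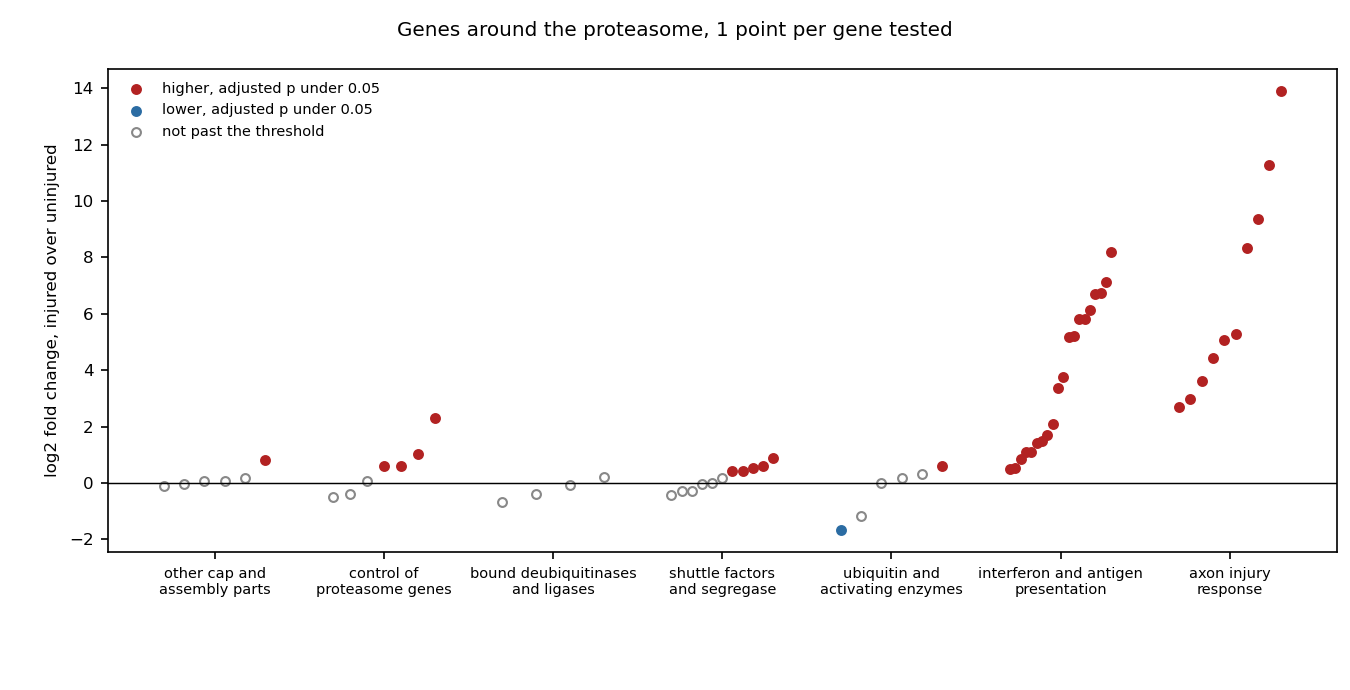
Log2 fold change, injured over uninjured, with 1 point for each tested gene of the pathway lists, the interferon and antigen presentation list and the axon injury list (n = 6 uninjured and 3 injured samples). Filled points are past the adjusted threshold. Mafk lies highest among the pathway genes, at 2.29, and all 20 interferon genes and 10 axon injury genes lie above 0.

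Markers of other retinal cells were followed in the same samples, and the most abundant gene of each list is given by mean CPM, first in the uninjured and then in the injured samples. The counts of higher and lower genes stand beside 21.3% and 22.7% of all genes tested. The amacrine list summed to 433, 522 and 626 CPM in the uninjured samples (lowest, median and highest) and to 507, 452 and 357 CPM in the injured ones, with 2 of 9 tested genes higher, 1 lower and Pax6, which RGCs also express, and C1ql2 the most abundant. The bipolar list summed to 175, 228 and 253 CPM and to 203, 219 and 187 CPM, with 1 of 2 tested genes lower, Isl1, which the RGC list also holds, and with Isl1 and Prkca the most abundant. The list of Muller glia and astrocytes summed to 230.2, 271 and 315 CPM and to 443, 515 and 326 CPM, above every uninjured sample, with 4 of 8 tested genes higher, 2 lower and Clu the most abundant in both. The rod and cone list summed to 3.37, 5.01 and 23.2 CPM and to 11.0, 33.9 and 12.9 CPM, with 1 of 2 tested genes higher and Sag and Pde6b the most abundant. Sox9, a higher gene of the glia list, and Pde6b, the higher rod and cone gene, had at most 11 and 12 UMIs in an uninjured library. Both met the filter on low counts only through the injured group. The list of endothelial cells and pericytes, with Kdr and Pecam1 the most abundant, Cdh5 and Kcnj8 at 0 and none tested, summed to 1.36, 3.84 and 7.07 CPM and to 2.45, 4.49 and 2.15 CPM. The part of such RNA in the changes of the proteasome genes was not tested. With cells that held at least 3 markers of another class left out, 3 members were higher and 1 lower. That is 8.51% of the members tested, against 37.1% of all genes past the threshold in this setting. The setting kept 621 of 1683 uninjured cells, and 25 of 103 in uninjured 2, and Psmb9 was not tested. The genes no longer past the threshold had log2 fold changes of 0.50 for Psma7, -0.61 for Psmc5, 0.34 for Psmc6, 0.48 for Psmd11 and -0.60 for Psme1, at adjusted p of 0.114, 0.0707, 0.0920, 0.136 and 0.109 (edgeR).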

How the data were processed

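UMI counts were measured in RGCs of 6 uninjured and 4 injured libraries. Per the labels, Cell Ranger 7.0.1 and genome build mm39 were used, while the study's methods name another version of Cell Ranger. The authors kept cells with RGC markers, and the deposited values are UMI counts of each gene in each cell that were not normalized. The files hold 1683 uninjured and 1609 injured cells. The study reports the same number of uninjured RGCs and fewer injured ones. The injured count includes the cells that injured 3 and injured 4 share. The members and lists were chosen with earlier results of these data known. All cells of a library were added up into 1 count per gene (Python 3.11.15; pandas 2.3.3, scipy 1.17.1 and numpy 2.4.6), and injured 3 and 4 were averaged and rounded. Genes that passed edgeR's default filter on low counts were compared in R 4.3.3 with edgeR 4.0.16 and limma 3.58.1 (TMM factors, robust quasi-likelihood test on condition, Benjamini-Hochberg adjustment over all 14234 genes tested, threshold 0.05). The difference between libraries is the median over genes of a chi-square over its value under sampling noise alone. The code was tested on simulated counts with 200 changed genes and the same mean for all uninjured samples of a gene. That setting has fewer changed genes than these data. It holds no sets of uninjured libraries that differ, so it cannot show how the test behaves with them. Figures were drawn with matplotlib 3.10.9.

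The lowest, median and highest uninjured values and every injured value are given for the catalytic subunits, their inducible counterparts, Psme1 to Psme4, Psmf1 and, in each class, the member with the largest rise and the largest fall past the threshold. From other lists, at most 3 genes a direction are named, each averaging 3 or more in log2 CPM. Tap1, Mafk, Nfe2l1, Nfe2l2, Keap1, Pomp, Ubb and the markers and other members given by name were chosen after their values were seen. Doublets were not called again, since the authors had limited the UMIs per cell, and a setting without cells with at least 3 markers of another class was run. The alternatives were scaling by library totals or by upper-quartile factors, the tool DESeq2 1.42.0, no filter, at least 10 counts in every sample, limits on cells (at most 10% mitochondrial, at least 1% ribosomal or 3 to 5% Malat1 UMIs), cells with at least 8000 UMIs thinned to that number, all libraries separate, similar libraries summed, libraries 1 to 4 with and without a replicate block, injured 1 and 2 alone, injured 3/4 alone and each library left out. The settings with all libraries separate and with libraries 1 to 4 counted injured 3 and injured 4, which share cells, as 2 samples. Settings chosen after seeing the data were uninjured 1 to 4 alone, uninjured 5 and 6 alone, and no cells with a microglia or an mCherry UMI. Positions are from GENCODE (GRCm39) and promoter windows from RefSeq (GRCm38.p6).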

Additional observations from a re-analysis of the deposited data

Results flagged for a closer look

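Psmc6 in uninjured 4 lay apart from the other uninjured samples. It was at 155 CPM, the nearest of the other 5 was at 172 CPM, and the gap was 0.855 of the range of the 6 samples, above Dixon's 95% critical value for 6 samples. Such a gap was looked for in 53 quantities, the 48 members and 5 class sums, and chance gives one in about 1 in 20.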

How the results depend on the processing

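Over 30 alternative settings, the number of members higher after injury was within 1.5 times 7 in 21, the number lower was within 1.5 times 3 in 20, and the number of pathway genes past the threshold was within 1.5 times 12 in 25. Psme4 was past the threshold in 30 of 30 settings (log2 fold change 0.62 to 1.25), Psmb8 in 29 of the 29 that tested it (3.34 to 4.94) and Psmb9 in 27 of 27 (3.16 to 4.90), while Psma7 and Psmc5 were in 19 of 30. Members higher numbered 3 without cells with markers of another class, with similar libraries summed, with injured 3/4 alone and without cells with an mCherry UMI (74 cells each kept of injured 3 and 4), and 12 at 3 to 5% Malat1, which kept 7 of 267 cells of uninjured 5 and 8 of 201 of uninjured 6. They numbered 22 with libraries 1 to 4 and no block, 20 with the replicate block, and 20 against uninjured 1 to 4. Over all genes 59.0%, 55.8% and 54.1% were past the threshold in these settings, beside 44.0% in the main fit. Both settings with libraries 1 to 4 of each condition counted injured 3 and injured 4, which share cells, as 2 samples. The share of all genes was 37.1% without cells with markers of another class and 27.1% with similar libraries summed. It was 36.8% without cells with an mCherry UMI and 32.9% at 3 to 5% Malat1. With injured 1 and 2 alone it was 35.3%, and against uninjured 5 and 6 it was 61.3%. Members lower numbered 1 without cells with markers of another class, with injured 1 and 2 alone, with injured 3/4 alone and without cells with an mCherry UMI, 5 with libraries 1 to 4 with or without the replicate block, and 14 against uninjured 5 and 6. They numbered 0 at 3 to 5% Malat1 and 0 with similar libraries summed, with 1 and 2 at an unadjusted p under 0.05 in edgeR. Pathway genes past the threshold numbered 6 with similar libraries summed, 20 with libraries 1 to 4 and no block, 22 with the replicate block, 20 against uninjured 1 to 4 and 20 against uninjured 5 and 6. With each library left out in turn there were 5 to 11 members higher (11 without uninjured 6), 1 to 3 lower (1 without injured 1) and 10 to 14 pathway genes. Library numbers do not pair the conditions: the correlations of paired libraries 1 to 4 across genes were -0.056, 0.013, -0.029 and -0.053, so the replicate block carries no known pairing. Among the members picked for levels by condition, signs turned 13 times, none past the threshold. Log2 fold changes were then 0.24 for Psmb10, 0.27 for Psmb6, 0.0463 for Psmb7 and 0.21 for Psmf1 at 3 to 5% Malat1, 0.0615 for Psmb10 with injured 1 and 2 alone, and 0.11 for Psmf1 with libraries 1 to 4 and no block or 0.10 with the replicate block. Against uninjured 1 to 4 they were 0.0588 for Psmb10, 0.0346 for Psmb6 and 0.11 for Psmf1, against uninjured 5 and 6 they were -0.0942 for Psme2 and -0.10 for Psme3, and without cells with an mCherry UMI -0.12 for Psme3. The cause was not tested. A lone sample in a group was assumed to vary like the other group. Depth limits Psmb8 and Psmb9, which were not tested in every setting.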
